A study of Mus musculus with 6 samples.

Results

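Liver growth hormone signalling was followed through 8 genes chosen by name from the 205 genes of the deposited table. Of these, 5 need pulsatile growth hormone for full expression (Socs2, Hsd3b5, Selenbp2, Mup7 and Mup21) and 3 are normally kept low by it (Cyp2b9, Cyp2b13 and Cyp3a41b). All 8 were present in the table. RNA-seq was done on livers of 6 aged mice (18 months of age) on a C57BL/6 background, 3 LoxP mice and 3 SIRT2-KOhep mice. Both groups carried SIRT2 flox/flox alleles. LoxP controls lacked Cre (Alb-Cre-, labelled WT), and SIRT2-KOhep mice carried Alb-Cre (Alb-Cre+, labelled KO), so that the albumin promoter directs deletion to hepatocytes and leaves SIRT2 in other liver cells. No treatment was given in the labels, and the sex of the sequenced mice is not given in the sources used here.

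Growth hormone binds its receptor on hepatocytes, and the kinase JAK2 then phosphorylates STAT5, which enters the nucleus and activates target genes. In male rodents the hormone is secreted in pulses, and in females its level is more even, so many liver genes differ between the sexes. Pulses sustain genes such as the major urinary proteins and hold down a group of cytochrome P450 genes that are typical of female liver. STAT5 also induces Socs2 and Cish, which act back on the receptor and limit its signal.

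The values are FPKM, in which fragments mapped to a gene are scaled by its length and by the library's mapped fragments. The table is a list that the authors selected on these same libraries, with 154 genes of higher and 51 of lower mean in SIRT2-KOhep livers, so a p-value computed on it is not independent evidence of a difference. Depth is unknown. Sirt2 itself was between 25.8 and 28.6 FPKM in LoxP livers and between 7.21 and 8.58 FPKM in SIRT2-KOhep livers, with means of 27.0 ± 1.44 and 8.08 ± 0.756 FPKM (SD, n = 3), so the libraries followed their labels. None of 14 general hepatocyte markers such as Alb and Ttr was in the table, so the tissue could not be checked by them. Mup7, which is made by hepatocytes, had the highest mean of all listed genes in LoxP livers. In bulk liver, fewer hepatocytes and less RNA per hepatocyte cannot be told apart.

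To show what the members carry before their start sites, the 250 bases upstream of the RefSeq start (GRCm38.p6) were read for the members that have an entry. Socs2 had none. For Mup21 and Selenbp2, GENCODE M21 places the start inside this window, upstream of that of RefSeq. For Hsd3b5 the RefSeq start lies well upstream of the GENCODE gene given below, so its window is not next to that gene's GENCODE start. The windows of Cyp2b9, chr7:26173159-26173408 (plus strand), and Cyp2b13, chr7:26061245-26061494 (plus strand), are shown first because the RNAs of both genes appeared in the same liver. They were identical at 248 of 250 positions, and capitals mark the 2 that differ.
Cyp2b9: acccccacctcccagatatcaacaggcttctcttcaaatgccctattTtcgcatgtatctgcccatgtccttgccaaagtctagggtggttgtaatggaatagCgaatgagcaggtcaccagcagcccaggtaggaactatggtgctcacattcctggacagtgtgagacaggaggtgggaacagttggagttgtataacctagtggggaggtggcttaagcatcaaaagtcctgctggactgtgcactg
Cyp2b13: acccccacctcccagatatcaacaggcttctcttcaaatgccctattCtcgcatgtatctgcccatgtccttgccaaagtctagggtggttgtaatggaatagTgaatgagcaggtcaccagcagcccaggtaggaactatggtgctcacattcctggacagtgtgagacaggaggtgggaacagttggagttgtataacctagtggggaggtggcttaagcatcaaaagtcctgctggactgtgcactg

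The windows of Mup7, chr4:60070476-60070725 (minus strand), Mup21, chr4:62150842-62151091 (minus strand), and Cyp3a41b, chr5:145584731-145584980 (minus strand), are shown because they hold the letters ATCAAT, marked in capitals. These letters are the core bound by the liver factors ONECUT1 and CUX2, whose own genes are in the table and are described below.
Mup7: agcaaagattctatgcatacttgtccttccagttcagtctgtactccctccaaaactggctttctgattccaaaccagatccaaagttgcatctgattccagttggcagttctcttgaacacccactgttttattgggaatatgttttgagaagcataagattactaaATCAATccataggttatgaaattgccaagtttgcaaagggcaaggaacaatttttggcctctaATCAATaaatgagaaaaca
Mup21: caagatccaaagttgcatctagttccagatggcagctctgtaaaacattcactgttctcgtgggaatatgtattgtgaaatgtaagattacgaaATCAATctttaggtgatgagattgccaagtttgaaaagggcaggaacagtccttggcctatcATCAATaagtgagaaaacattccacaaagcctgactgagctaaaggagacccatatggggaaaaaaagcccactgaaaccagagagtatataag
Cyp3a41b: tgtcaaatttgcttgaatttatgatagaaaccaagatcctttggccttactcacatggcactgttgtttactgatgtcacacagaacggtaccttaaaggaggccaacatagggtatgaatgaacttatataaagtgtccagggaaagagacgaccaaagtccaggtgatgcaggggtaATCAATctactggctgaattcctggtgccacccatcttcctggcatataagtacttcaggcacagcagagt

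ATCAAT, searched on both strands, occurred 2 times in each Mup window, with first bases 82 and 19 bases before the start in Mup7 and 156 and 94 bases before it in Mup21. It occurred 1 time in Cyp3a41b, 71 bases before the start. Of all 32851 RefSeq windows of this length, 6.72% held it at least 1 time and 0.609% at least 2 times. The STAT5 core TTCNNNGAA, which reads the same on both strands, was in none of the 7 members' windows and in 7.02% of all windows. These matches are letters in a short window and describe no binding.

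Socs2 encodes the STAT5-induced inhibitor of the growth hormone receptor and lies on chromosome 10 of GRCm38 from 95385362 to 95417180, with 3 exons in its principal GENCODE M21 transcript. Its level was 19.97, 8.59 and 15.8 FPKM in LoxP mice 1, 2 and 3 and 4.51, 5.74 and 1.70 FPKM in SIRT2-KOhep mice 1, 2 and 3. Each SIRT2-KOhep liver was below each LoxP liver, and mouse 3 was lowest. The mean was 14.8 ± 5.76 FPKM (SD, n = 3) in LoxP and in SIRT2-KOhep it was 3.98 ± 2.07 FPKM (SD, n = 3), a level of 26.9% relative to LoxP. On the log2(FPKM + 1) scale limma gave a fold change of -1.69 (standard error 0.55) with an unadjusted p of 0.0174. After Benjamini-Hochberg adjustment over the 205 genes the adjusted p was 0.300. A two-sided exact permutation test gave 0.1, the smallest value that 3 mice against 3 can give.

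Selenbp2, a selenium-binding protein gene with male-biased liver expression, lies on chromosome 3 from 94693556 to 94704413 and has 12 exons. Its level was 458, 549 and 657 FPKM in LoxP mice 1, 2 and 3, and 193, 19.0 and 152 FPKM in the SIRT2-KOhep mice in the same order. The groups did not overlap, and SIRT2-KOhep mouse 2 stood below the other two livers of its group. The mean was 555 ± 99.5 FPKM (SD, n = 3) against 122 ± 91.2 FPKM (SD, n = 3), or 21.9% relative to LoxP. By limma the log2 fold change came to -2.71 (standard error 0.94, unadjusted p = 0.0235, adjusted p = 0.300), and the exact permutation p was again 0.1. Without SIRT2-KOhep mouse 2 the log2 fold change was -1.67, with a mean of 31.1% of LoxP.

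Hsd3b5 encodes a male-specific hepatic member of the 3-beta-hydroxysteroid dehydrogenase family that reduces ketosteroids, and its 3 exons lie on chromosome 3 from 98618634 to 98630252. LoxP mice 1, 2 and 3 had 56.7, 150 and 98.05 FPKM. SIRT2-KOhep mice had 80.1, 1.52 and 52.25 FPKM, so mouse 2 was nearly without this RNA while mouse 1 lay inside the LoxP range. The highest SIRT2-KOhep liver exceeded the lowest 52.7 times, against 2.64 times among LoxP livers. The group means were 101.5 ± 46.6 and 44.6 ± 39.9 FPKM (SD, n = 3). Limma put the log2 fold change at -2.10 (standard error 1.31, adjusted p = 0.300), or -0.53 without mouse 2, and the groups overlapped (exact permutation p = 0.2).

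Major urinary proteins are small lipocalins that the liver secretes and that carry pheromones in urine. Mup7 (chromosome 4, 60066469 to 60070475, 7 exons) was at 11874, 16702 and 19020 FPKM in LoxP mice 1, 2 and 3 while SIRT2-KOhep mice 1, 2 and 3 had 8638, 1724 and 12355 FPKM. Mouse 2 had 10.9% of the LoxP mean, mouse 1 54.4% and mouse 3 77.9%, and only mouse 3 overlapped with LoxP mouse 1. The means were 15865 ± 3646 and 7572 ± 5395 FPKM (SD, n = 3), a log2 fold change of -1.45 (standard error 0.87, adjusted p = 0.300 from limma), and of -0.59 without mouse 2. Mup21 (chromosome 4, 62147932 to 62150863, 6 exons) was at 119, 265 and 513 FPKM in LoxP livers and at 186, 53.1 and 158 FPKM in the knockout livers. Here LoxP mouse 1 was below SIRT2-KOhep mice 1 and 3, and only mouse 2 lay under all LoxP livers. Mup21 had means of 299 ± 199 and 132 ± 70.1 FPKM (SD, n = 3) and a log2 fold change of -1.12 (standard error 0.80, adjusted p = 0.306 from limma), or -0.56 without mouse 2. The exact permutation p was 0.2 for Mup7 and 0.3 for Mup21.

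**Figure D1:**
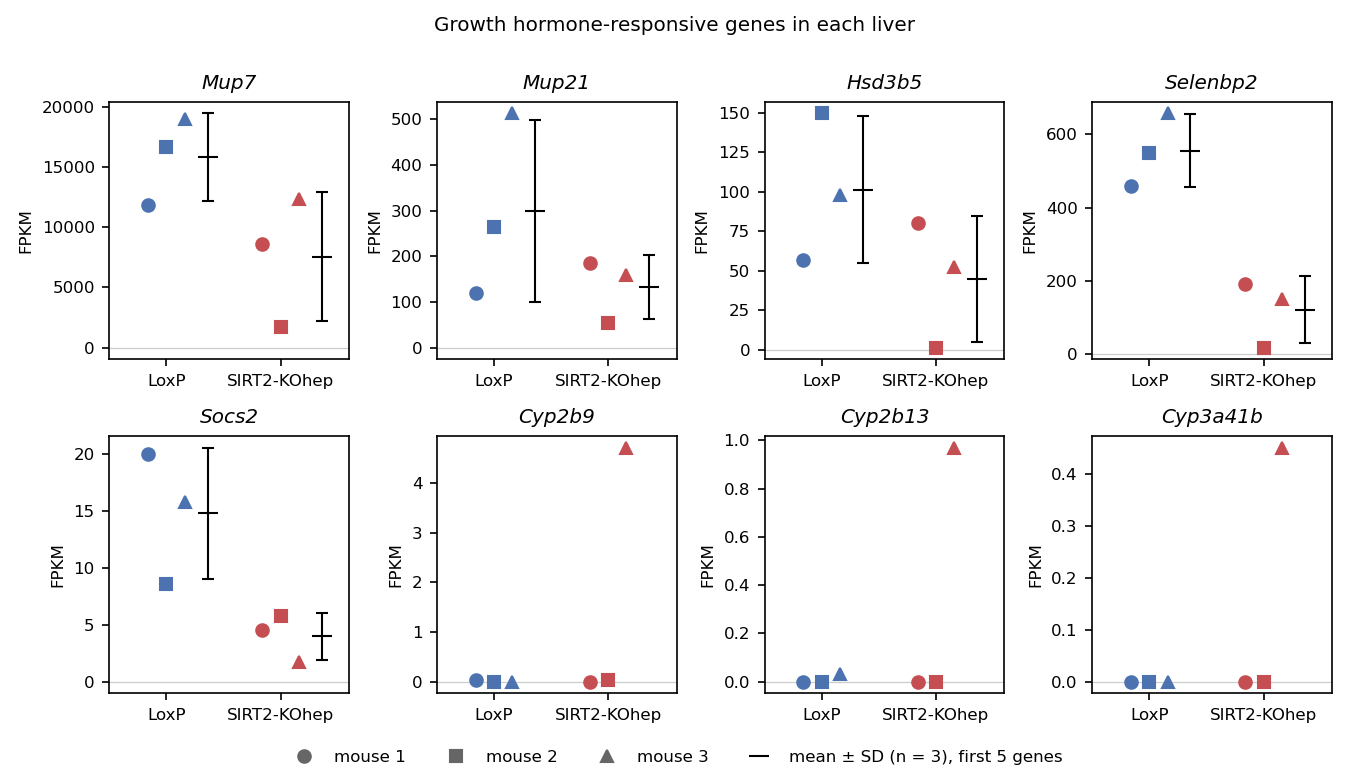
FPKM (linear axes) of the 8 genes in each liver, with LoxP mice in blue and SIRT2-KOhep mice in red, marker shape giving the mouse number and black bars the mean ± SD of 3 mice for the 5 pulse-dependent genes. Socs2 and Selenbp2 separate the groups, Hsd3b5 and Mup7 are lowest in SIRT2-KOhep mouse 2, and the 3 P450 genes are seen in SIRT2-KOhep mouse 3 only, with 0.03 FPKM or less elsewhere.

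All 5 pulse-dependent genes had a lower mean in SIRT2-KOhep livers, as had 51 of all 205 listed genes. The median log2 fold change of the 5 was -1.69, beside 0.34 over all 205 listed genes. None of the 8 members had an adjusted p below 0.05 in limma, as for all listed genes (0% called). Before adjustment 2 of the 5, Socs2 and Selenbp2, had a p below 0.05, and 4.39% of all listed genes had one and were lower (9 genes, and 29 after median-ratio scaling). The scaling factors came from 152 of these selected genes and were larger in each SIRT2-KOhep liver, so scaling itself moves genes toward lower. Socs2 and Selenbp2 also had no overlap between the groups, which was so in either direction for 34.1% of listed genes and in the lower direction for 10.7%. Leaving out LoxP mouse 1 or LoxP mouse 3 left 0 members with an unadjusted p below 0.05, and leaving out LoxP mouse 2 left Socs2 alone. Of all 205 listed genes, 8, 11 and 6 had such a p without LoxP mouse 1, 3 or 2, against 22 with all mice. Of these, 5, 9 and 6 were lower, against 9 with all mice. Without LoxP mouse 1 all 5 genes separated the groups, as did 30 of all 205 listed genes in the lower direction. That mouse was the lowest LoxP liver for 4 of the 5, beside 81 of all 205. Leaving out SIRT2-KOhep mouse 2 brought the arm's median log2 fold change to -0.59.

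The SIRT2-KOhep mice differed in which genes were low. Mouse 2 was the lowest of all 6 livers for 4 of the 5 pulse-dependent genes, beside 25 of all 205 listed genes. It stood at 1.5% of the LoxP mean for Hsd3b5, 3.43% for Selenbp2, 10.9% for Mup7 and 17.7% for Mup21. For Socs2 the same mouse had 38.8%, the highest of its group. Mouse 3 had the lowest Socs2, 11.5% of the LoxP mean, with 77.9% for Mup7 and 51.5% for Hsd3b5. Mouse 1 lay between 30.5% for Socs2 and 79.0% for Hsd3b5. As the median over the 5 genes of log2(FPKM + 1) minus the LoxP mean, this was -0.85, -3.17 and -0.84 in SIRT2-KOhep mice 1, 2 and 3, against -0.39, 0.06 and 0.26 in LoxP mice 1, 2 and 3. The corresponding median over all listed genes was 0.50 in mouse 2.

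**Figure D2:**
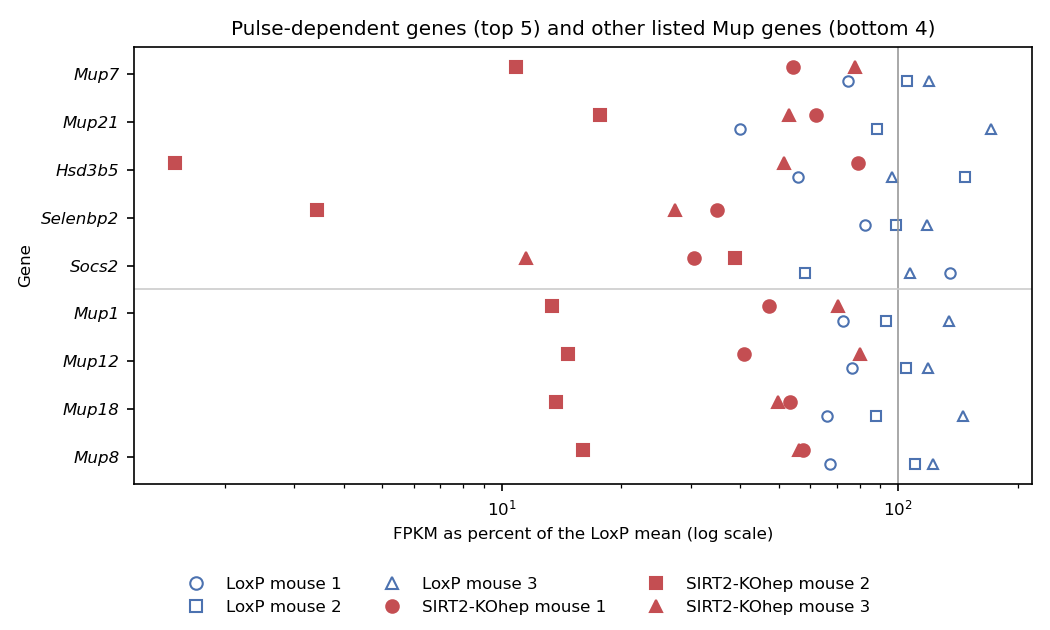
FPKM of the 5 pulse-dependent genes and of 4 further listed Mup genes as percent of each gene's LoxP mean (log axis), with open blue markers for LoxP and filled red markers for SIRT2-KOhep livers. SIRT2-KOhep mouse 2 (red squares) lies far to the left for every gene except Socs2, where mouse 3 is lowest at 11.5%.

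The genes that pulsatile growth hormone holds down are cytochromes P450 that oxidise steroids and foreign compounds and are typical of female mouse liver. Cyp2b9 (chromosome 7, 26173411 to 26210661, 9 exons) reached 4.72 FPKM in SIRT2-KOhep mouse 3, against 0.03 FPKM in LoxP mouse 1 and SIRT2-KOhep mouse 2, and was listed at 0 in the other 3 livers. Cyp2b13 (chromosome 7, 26061497 to 26096197, 9 exons) was at 0.97 FPKM in the same SIRT2-KOhep mouse, at 0.03 FPKM in LoxP mouse 3 and listed at 0 in 4 livers. Cyp3a41b (chromosome 5, 145558664 to 145584730, 13 exons) was at 0.45 FPKM in that mouse and listed at 0 in the other 5. These 3 genes were therefore seen above 0.03 FPKM in 1 liver of 6, and the groups overlapped in all 3. Within that liver, Cyp2b9 was 4.87 times Cyp2b13 and 10.5 times Cyp3a41b in FPKM. The fitted log2 fold changes were 0.84 for Cyp2b9, 0.31 for Cyp2b13 and 0.18 for Cyp3a41b (adjusted p between 0.318 and 0.338 from limma), and as the genes are near 0 in 5 livers these sizes depend on the pseudocount. Without SIRT2-KOhep mouse 3 they were 0.01, -0.01 and 0. The exact permutation p was 0.7 for Cyp2b9 and 1 for Cyp2b13 and Cyp3a41b.

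Set against each other, the arms were furthest from LoxP in different livers. SIRT2-KOhep mouse 2, with the lowest pulse-dependent arm, had Cyp2b9 at 0.03 FPKM and the other P450 genes at 0. SIRT2-KOhep mouse 3, in which all 3 P450 genes were seen, had 3 pulse-dependent genes below all LoxP livers (Socs2, Selenbp2 and Hsd3b5), beside 39 of all 205 listed genes. This mouse had Mup7 at 12355 FPKM, above LoxP mouse 1. Its pulse-dependent median of -0.84 was close to that of SIRT2-KOhep mouse 1 (-0.85) and below each LoxP mouse, so both arms were away from LoxP in this liver. SIRT2-KOhep mouse 1 also had 3 pulse-dependent genes below all LoxP livers (Socs2, Selenbp2 and Mup7), beside 44 of all 205 listed genes. All 3 P450 genes were at 0 in that mouse. The median of the repressed arm was 0.96 on the log2 scale in mouse 3 and between -0.01 and 0 in the other 5 mice.

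**Figure D3:**
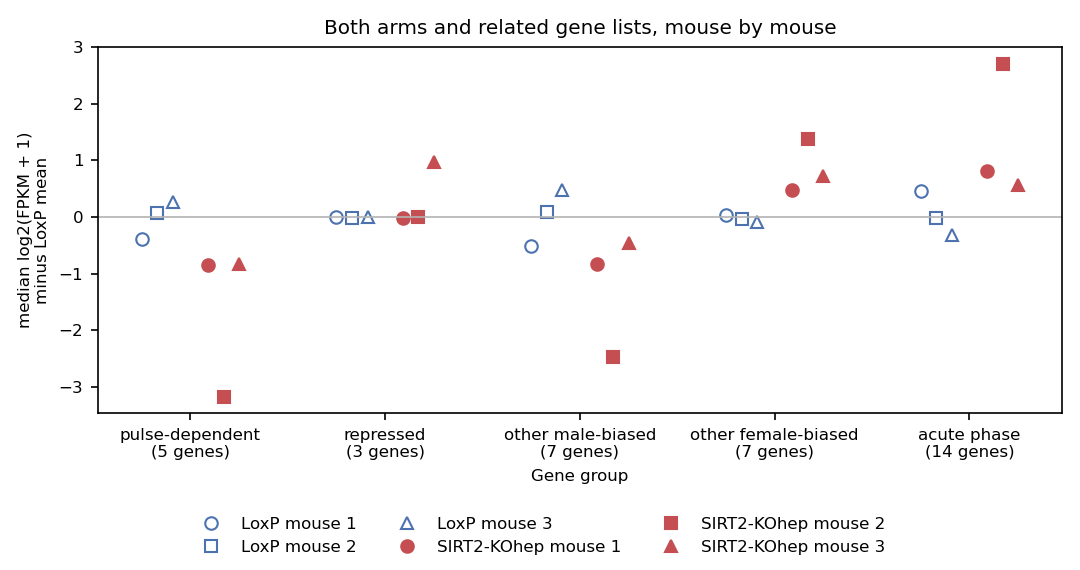
Median of log2(FPKM + 1) minus the LoxP mean over the genes of each group (vertical axis, log2 units), for each LoxP (open blue) and SIRT2-KOhep (filled red) mouse. The pulse-dependent arm is lowest in SIRT2-KOhep mouse 2 (-3.17), where acute phase genes are highest (2.71), and the repressed arm is away from 0 in SIRT2-KOhep mouse 3 alone (0.96).

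Close copies of some members can share fragments with them. Of the distinct 100-base windows in GENCODE M21 transcripts of Mup7, 76.1% also occur in transcripts of other genes (17 genes, Mup1 most), and of those of Cyp3a41b 88.2% occur in Cyp3a41a, so the values of Mup7 and Cyp3a41b may include fragments of these relatives. The share was 17.4% for Selenbp2 (with Selenbp1), 9.29% for Cyp2b13, 7.79% for Hsd3b5, 4.5% for Mup21, 2.31% for Socs2 and 1.18% for Cyp2b9. A window counts as shared only when all its bases are the same, so these shares do not give the identity of whole transcripts. No exon of another GENCODE gene overlapped an exon of a member.

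Other male-biased genes were taken from a list of 65 liver genes that pulses of growth hormone support, all Mup genes included. The table held 11 of them, 4 of which are members. Of the other 7, all had a lower mean in SIRT2-KOhep livers, as had 51 of all 205 listed genes. Obp2a turned higher without LoxP mouse 3, which had 22.35 FPKM against 2.26 and 2.38 FPKM in LoxP mice 1 and 2. None of the 7 passed limma at an adjusted or an unadjusted p of 0.05. Of the 7, 4 had no overlap between the groups (10.7% of all listed genes were lower without overlap). The median log2 fold change of the 7 was -1.33, or -0.74 when SIRT2-KOhep mouse 2 was left out. Over all listed genes these medians were 0.34 and 0.16. After median-ratio scaling 3 had an unadjusted p below 0.05 and a lower mean, as did 29 of all 205 listed genes, against 9 before it. The authors picked the listed genes on these libraries, so their direction is not independent evidence. Mup1 was at 1787, 2301 and 3303 FPKM in LoxP livers, compared with 1164, 330 and 1739 FPKM in SIRT2-KOhep mice 1, 2 and 3. Mup8, Mup12 and Mup18 were also lowest in mouse 2, and of the 4 only Mup12 overlapped between the groups, with SIRT2-KOhep mouse 3 above LoxP mouse 1. These 4 of the 7 are relatives of the members Mup7 and Mup21 and may share fragments with Mup7, so they are not separate from the members. The 6 listed Mup genes together came to 15983, 22279 and 26392 FPKM in LoxP mice 1, 2 and 3 and to 11230, 2534 and 16482 FPKM in the SIRT2-KOhep mice. The members of this family thus stood at 10.9% to 17.7% of their own LoxP means in mouse 2. Gna14, a G protein subunit, was lower in each SIRT2-KOhep liver than in each LoxP liver (1.30 ± 0.28 against 0.59 ± 0.22 FPKM, SD, n = 3). Obp2a, an odorant-binding lipocalin, and Moxd1, a monooxygenase-like protein, overlapped between the groups.

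Female-biased genes were taken from a list of 58, of which the table held 10, 3 of them members. The other 7 all had a higher mean in SIRT2-KOhep livers, as had 154 of all 205 listed genes. For the 7 the median log2 fold change was 1.18, beside 0.34 over all listed genes. Prom1 turned lower after median-ratio scaling (median of the 7 0.62). Without SIRT2-KOhep mouse 2, Prom1 and Cux2 turned lower (median of the 7 0.73). Of the 7, 3 had no overlap, against 23.4% of listed genes without overlap in the higher direction. In limma, 2 had an unadjusted p below 0.05 and 0 an adjusted one, and 6.34% of all listed genes had such an unadjusted p and were higher (13 genes, and 5 after scaling). The 2 became 0 without any 1 of the LoxP mice, 4 when knockout mouse 1 was dropped and 1 when knockout mouse 2 or 3 was. Over all 205 listed genes, 3, 0 and 2 were so called and higher without LoxP mouse 1, 2 or 3. Without knockout mouse 1, 2 or 3 these were 17, 23 and 39. Sult2a7, a sulfotransferase for steroids and bile acids, was at 1.84, 1.72 and 1.38 FPKM in LoxP mice, and SIRT2-KOhep mice 1, 2 and 3 had 2.88, 5.75 and 9.20 FPKM, with the highest value in mouse 3. Slc22a27, an organic anion transporter, was at 0.54, 0.41 and 0.34 FPKM against 1.56, 4.62 and 1.36 FPKM. The P450 gene Cyp2c38 also separated the groups, with 12.6 ± 2.04 and 25.9 ± 8.10 FPKM (SD, n = 3). Its relative Cyp2c69 was at 3.42, 1.95 and 8.20 FPKM in LoxP livers and 3.44, 15.4 and 22.7 FPKM in SIRT2-KOhep livers, where mice 2 and 3 were above all LoxP mice and mouse 1 was not. The transporter Slc22a26 reached 21.3 FPKM in mouse 2 and was at most 1.53 FPKM in the other 5. Prom1, a membrane glycoprotein, and Cux2 were highest in mouse 2, with overlap between the groups. These 7 genes were highest in mouse 2 in 5 cases and in mouse 3 in 2 cases. Of all 205 listed genes, 108 were highest in mouse 2 and 18 in mouse 3. The 3 member P450 genes were highest in mouse 3.

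Of 30 genes of growth hormone receptor, JAK2 and STAT5 signalling, the table held 6, Sirt2 and Socs2 included. Ghr, Jak2, Stat5a, Stat5b and Igf1 were not among the genes of the table, and their levels were not analysed here. Cish, a STAT5-induced inhibitor like Socs2, was at 12.4, 1.68 and 3.36 FPKM in LoxP mice and 1.08, 2.69 and 1.97 FPKM in SIRT2-KOhep mice. The groups overlapped, and LoxP mouse 1 stood above the rest. Onecut1, the liver factor HNF6, which growth hormone induces, was at 9.83, 2.67 and 1.66 FPKM in LoxP mice and 1.42, 0.58 and 0.46 FPKM in SIRT2-KOhep mice. It was lower without overlap, as were 10.7% of all listed genes. Its log2 fold change by limma was -1.41 (standard error 0.59, unadjusted p = 0.0469, adjusted p = 0.300). The unadjusted p was not below 0.05 without LoxP mouse 1 or 2, without any 1 of the SIRT2-KOhep mice, or without the trend or moderation. Over all 205 listed genes, 8 and 6 had one without LoxP mouse 1 or 2, and 23, 36 and 53 without SIRT2-KOhep mouse 1, 2 or 3. LoxP mouse 1 was the highest of all 6 livers for Socs2, Cish and Onecut1 and the lowest LoxP liver for Mup7, Mup21, Hsd3b5 and Selenbp2. Cux2, which is on the female-biased list too, a repressor of male-biased genes that is typical of female liver, had 0.84 FPKM in SIRT2-KOhep mouse 2, 0.01 FPKM in mouse 3 and from 0.06 to 0.13 FPKM in the other 4 livers. Igfbp1, an insulin-repressed binding protein for IGFs, read 71.2, 158 and 40.85 FPKM in the SIRT2-KOhep group against 47.4, 63.3 and 15.99 FPKM in LoxP mice, with overlap. Over these 5 genes besides Socs2, the median log2 fold change was -0.93 (-0.27 without LoxP mouse 1). It includes the deleted gene Sirt2 (-1.625), whose fall was set by the design. Apart from Sirt2, Cish and Onecut1 were lower and Cux2 (0.22) and Igfbp1 (1.06) higher, so the median gives no common direction. Of the 5 genes, 2 had an unadjusted p below 0.05 (Onecut1 and Sirt2) and 0 an adjusted one, beside 10.7% of all listed genes with such an unadjusted p.

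**Figure D4:**
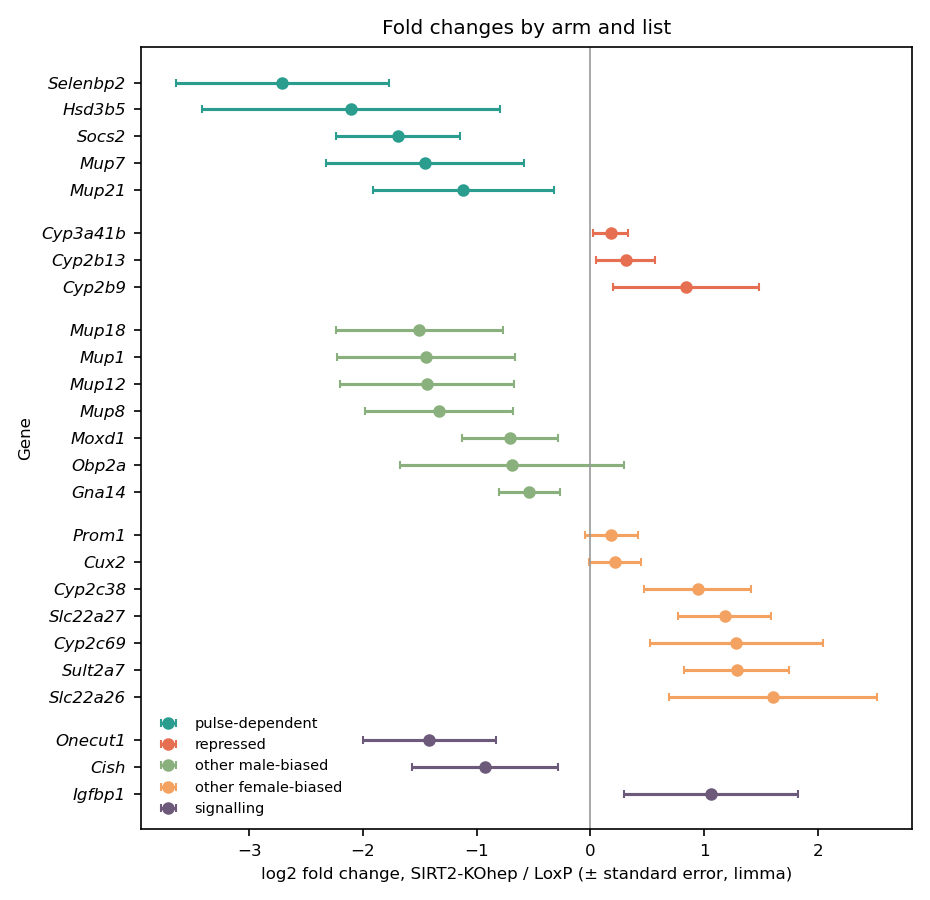
Log2 fold change, SIRT2-KOhep over LoxP, with its standard error from limma on log2(FPKM + 1), for the members and for the other listed genes of each group. Pulse-dependent and male-biased genes lie left of 0 and repressed and female-biased genes right of it, and no gene passed an adjusted p of 0.05. Prom1 turns lower after median-ratio scaling, Prom1 and Cux2 without SIRT2-KOhep mouse 2, and Obp2a turns higher without LoxP mouse 3. The repressed genes rest on SIRT2-KOhep mouse 3, without which Cyp2b13 is at -0.014 and Cyp3a41b at 0.

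Markers of inflammation and of other cells moved with the mouse that had the lowest pulse-dependent arm. Of 31 hepatic acute phase genes, 14 were listed, and 13 of these were highest in SIRT2-KOhep mouse 2, as were 108 of all 205 listed genes. Relative to the LoxP mean their median lay 0.81, 2.71 and 0.56 log2 units higher in SIRT2-KOhep mice 1, 2 and 3, and 0.45 higher in LoxP mouse 1. By mean over the groups, 13 were higher and Hamp lower, beside 154 higher of all 205 listed genes. In limma 2 had an unadjusted p below 0.05 (10.7% of all listed genes) and 0 an adjusted one. The 2 became 0 without any 1 of the LoxP mice, 3 when knockout mouse 1 or 2 was dropped and 7 when knockout mouse 3 was. Over all 205 listed genes the same fits gave 8, 6 and 11 without LoxP mouse 1, 2 or 3. They gave 23, 36 and 53 without knockout mouse 1, 2 or 3, so the calls changed over the whole table. For the 14 genes the median log2 fold change was 1.40 (0.81 without mouse 2 and 0.63 after median-ratio scaling). Among 9 lists of cell type markers, 6 had a gene in the table, and all 20 listed markers were highest in mouse 2, beside 108 of all 205 listed genes. Markers outside the authors' selection were not seen. Median-ratio scaling took its factors from 152 of these selected genes, with a log2 factor of 1.19 in mouse 2 and -0.57 to 0.08 elsewhere. A fall of lists that are high in mouse 2 is thus built in and cannot decide whether these markers were higher. After this scaling the median log2 fold change fell from 1.01 to 0.24 for erythroid and from 0.74 to 0.31 for neutrophil genes. For B and plasma cell genes it fell from 0.58 to 0.03, and for acinar genes from 0.63 to 0.405. Cholangiocyte genes went from 0.71 to 0.32 and the stellate gene from 0.46 to 0.09. Summed FPKM of 6 of 7 erythroid genes was 1085 to 1819 in LoxP livers and 2681, 6758 and 1601 in SIRT2-KOhep mice 1, 2 and 3. That of 7 of 12 neutrophil genes was 27.4 to 100.1 in LoxP livers and 144, 1698 and 66.35 in SIRT2-KOhep mice, of which Lcn2, a gene of the acute phase list as well, made up 1649 in mouse 2. S100a8, a defining neutrophil gene, was at 20.04 FPKM in mouse 2 and at most 7.42 FPKM elsewhere. The sum was 17.04 FPKM in mouse 2 and at most 7.95 elsewhere for 2 of 8 B and plasma cell genes, 9.13 and at most 1.38 for 2 of 7 cholangiocyte genes, and 1.90 and at most 1.22 for 1 of 7 stellate genes. Both listed acinar markers (2 of 14) were at 0 in the LoxP livers and summed to 6.79 FPKM in mouse 2. In mouse 3, where the P450 genes were seen, these sums lay within the LoxP range or near it, apart from the stellate gene Acta2 at 1.22 against 0.53 to 0.64 FPKM. No endothelial or macrophage marker was listed. The part of these cells and of the acute phase in the low pulse-dependent genes was not tested.

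The genes outside the 8 that most resembled the pulse-dependent arm over the 6 mice were Mup1, Mup18 and Mup8, with root mean square differences of 0.24, 0.24 and 0.30 on the log2 scale. All 3 are relatives of the members Mup7 and Mup21. As 48% of the Mup7 windows also occur in Mup1, part of this likeness may be shared fragments, which was not tested. Closest to the repressed arm were Lrtm1 (0.11), Tmprss4 (0.18) and Psma8 (0.19). Lrtm1 had its highest level, 2.17 FPKM, in SIRT2-KOhep mouse 3 and lay between 0.31 and 0.54 FPKM in the other livers, and Tmprss4, a membrane serine protease, at 1.04 FPKM in mouse 3 and at most 0.54 FPKM elsewhere. The likeness rests on 6 values per gene, and on 1 liver for the repressed arm.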

How the data were processed

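Liver transcriptomes of 3 LoxP and 3 SIRT2-KOhep mice were compared, with group and mouse number taken from sample titles. Libraries were made after mRNA enrichment or rRNA removal and sequenced by DNBSEQ. For 205 genes, FPKM with 2 decimals were deposited by the authors, who scaled fragments by gene length and library size. Per the submitters' processing notes the build was mm10. The aligner, the counting and the test behind the selection are not given in the sources used here. Over 61 genes, 290 ratios of a value to the lowest value of its gene were read. They fell near whole numbers (tolerance 0.1) in 16.6% of cases, beside 20% for evenly spread ratios. These genes were not limited to low levels and genes with the smallest values were left out. The ratios thus cannot decide whether reads could be recovered for values near 0, and reads and depth were not recovered.

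Gene IDs were matched to RefSeq symbols (203 of 205). Values were transformed to log2(FPKM + 1) and fitted with limma 3.58.1 in R 4.3.3 (trend, genotype as the 1 term), with Benjamini-Hochberg adjustment over 205 genes, and tested on simulated data. Single genes were compared by two-sided exact permutation tests in scipy 1.17.1. Tables were handled in pandas 2.3.3 and numpy 2.4.6 under Python 3.11.15, and plots were drawn in matplotlib 3.10.9. The members and gene lists were chosen with earlier results of these data known. The genes named are the 8 members, Sirt2, listed genes of the male-biased, female-biased, signalling, acute phase and cell marker lists, and the 3 genes nearest each arm. Alternatives were other pseudocounts (0.1 and 0.01), a filter at a mean of 1 FPKM, no trend, variances that were not moderated, median-ratio scaling, a replicate block and leaving out each mouse. The scaling factors came from the 152 listed genes above 0 in all livers. Mice with the same number come from no stated common source.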

Additional observations from a re-analysis of the deposited data

How the results depend on the processing

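The log2 fold changes of the 5 pulse-dependent genes were negative under all 13 alternatives, with adjusted p from 0.0806 (Selenbp2, without SIRT2-KOhep mouse 2) to 0.576 (Mup21, without the same mouse). No member passed the adjusted threshold under any of them. The count of members with an unadjusted p below 0.05 was 2, and 1 (Socs2) with variances that were not moderated, and 0 to 2 with single mice left out. The count without overlap was 2, lay between 2 and 5 with single mice left out, and was 3 with median-ratio scaling, which added Mup7. The median log2 fold change of the pulse-dependent arm (-1.69) spanned -2.01 to -0.59 with single mice left out, and was -2.37 after scaling. That of the repressed arm (0.31) was 1.01 and 1.84 with pseudocounts of 0.1 and 0.01, and 0 to 0.47 with single mice left out. Without SIRT2-KOhep mouse 3 the log2 fold change of Cyp2b13 turned to -0.014 and that of Cyp3a41b was 0, in a range of -0.014 to 0.475 for Cyp2b13 and 0 to 0.268 for Cyp3a41b over the mice left out. The filter at a mean of 1 FPKM removed the 3 repressed genes. Scaling moved the median of all listed genes from 0.34 to 0.12, and of those with an unadjusted p below 0.05 it left 5 higher and 29 lower, against 13 and 9. As the scaling factors came from the listed genes themselves, this shift is built in. Over all listed genes the count with an adjusted p below 0.05 was 0, and 1 (Sirt2) without the trend or without moderation and 2 without SIRT2-KOhep mouse 2 (H2bc23 and H4bc24, named after their values were seen). H2bc23 and H4bc24 have the same FPKM in every liver, so they are not 2 separate measurements. The count with an unadjusted p was 22, and from 6 to 53 across the fits that left out a mouse, 26 and 34 with pseudocounts of 0.1 and 0.01, 33 without the trend and 36 without moderation. Deviations of same-numbered mice from their group means correlated at -0.19, 0.03 and 0.34 over 205 genes for mice 1, 2 and 3. With 3 mice per group and genes selected on these libraries, this cannot decide whether the numbers pair the mice. With the replicate block, 2 members had an unadjusted p below 0.05, 0 an adjusted one, and the adjusted p of Socs2 and Selenbp2 was 0.328. Without a known depth, counting error and differences between mice cannot be told apart, least of all for the P450 genes near 0.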
